A study of Homo sapiens with 21 samples.

Results

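The 10 genes described here encode smooth-muscle-type contractile proteins or the transcription factor SRF itself, and all are known SRF targets. They were taken as a fixed list of names (ACTA2, TAGLN, CNN1, CNN2, MYL9, TPM1, TPM2, CALD1, ACTG2 and SRF). These 10 and the other lists below were chosen with earlier results of these data known. Their counts beside the share of all genes are therefore descriptive. All 10 were found among the 57820 genes of the count table, and all 10 were among the 30549 genes that passed the low-count filter (an average of 1 or more counts in each library) and were tested.

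SRF (serum response factor) is a transcription factor that binds as a dimer to a short A/T-rich DNA element, the CArG box. It drives contractile genes together with coactivators of the myocardin family, namely MYOCD in muscle and MRTFA and MRTFB in most other cells, where the MRTFs enter the nucleus as monomeric actin is built into filaments. Together with ternary complex factors such as ELK1, ELK3 and ELK4, SRF instead drives immediate-early genes. In non-muscle cells these contractile proteins form stress fibres, and they are commonly used as readouts of a spread, mesenchymal state.

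The data are RNA-seq counts from A673, a cell line established from an Ewing sarcoma, a tumour of the bone and soft tissue whose driver is the fusion oncoprotein EWS/FLI. There were 21 libraries that fell into 7 groups of 3 numbered replicates. In every group the cells received a retroviral shRNA on day 1, a retroviral cDNA or empty vector with hygromycin resistance on day 5, and double selection (puromycin at 2 µg/mL and hygromycin B at 400 µg/mL) until day 16. In iLuc the shRNA was directed at luciferase and the vector was empty, so the endogenous fusion remained. In iEF the shRNA was directed at EWS/FLI and the vector was empty. The other 5 groups carried the EWS/FLI shRNA and a rescue cDNA: wild-type EWS/FLI (WT-EF), Δ22 (a fusion that lacks the EWS domain, named del22 or delta22 in the labels), DAF (tyrosines of the amino-terminal EWS repeats changed to alanine, with later tyrosines kept), mut9 (a shortened EWS domain) or DAF-mut9 (mut9 with its remaining repeat tyrosines changed to alanine). In the count table the DAF-mut9 libraries were taken to be the columns called mut9d, a reading on which all DAF-mut9 values rest. The replicates are described in the study as repeats of the knockdown and rescue, all in 1 cell line, so p-values measure the spread between such repeats of that line.

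Library totals were 32.9 to 46.2 M counts. FLI1 counts, which sum the endogenous fusion with the FLI part of each cDNA, stood at 20.8, 20.02 and 21.1 CPM (counts per 1 M counts of the library after TMM adjustment) in iEF and at 61.3, 60.6 and 89.05 CPM in iLuc, and all 15 rescue libraries lay between 21.9 and 62 CPM. Skeletal muscle markers were near the floor, with 4 of 5 under 1 CPM in every group. The summed level of 8 markers of differentiated smooth muscle was 121 to 387 CPM in iEF and 55.1 to 134 CPM in iLuc and WT-EF, but HDAC9 alone gave 70.9% to 88.9% of it in iEF and 74.4% to 83.9% in iLuc and WT-EF. The other 7 summed to 35.2 to 45.7 CPM in iEF and 14.1 to 24.9 CPM in iLuc and WT-EF. The summed level of 6 fibroblast markers was 135 to 294 CPM in iEF and 81.3 to 118 CPM in iLuc and WT-EF. The defining smooth muscle myosin MYH11 was at most 2.69 CPM in any library. The part of these markers in the results was not tested. Of the 6 fibroblast markers 3 were called lower in iLuc than in iEF, beside 22.4% of all tested genes, and 1 higher, beside 18.7%. Of 6 Ewing sarcoma markers 5 were called higher, beside the same 18.7%.

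ACTA2, ACTG2, CALD1, CNN2 and SRF had a CArG box or a near match just before an annotated start in the RefSeq promoter table (GRCh38.p14, 250 bases before to 50 after each start) in windows that are shown here because they carry the element that defines the group. They are printed on the gene's strand, with the box in capitals and 10 bases on either side.

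ACTA2, box at -121, 1 difference: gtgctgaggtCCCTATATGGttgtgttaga
ACTA2, box at -71, 1 difference: tgtctttgctCCTTGTTTGGgaagcaagtg
ACTG2, box at -110, exact: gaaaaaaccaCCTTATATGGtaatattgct
ACTG2, box at -73, exact: cgtcagctggCCTTTTTAGGgactttgttt
CALD1, box at -26, 1 difference: ccagaggtccCCTAAAGAGGaatacattct
CNN2, box at -89, exact: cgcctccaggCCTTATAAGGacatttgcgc
SRF, box at -30, exact: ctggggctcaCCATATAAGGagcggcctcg
SRF, box at -10, exact: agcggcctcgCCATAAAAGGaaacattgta

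Each window matched GRCh37, the build of the counts, at 1 place: ACTA2 at chr10:90712632-90712661 and chr10:90712582-90712611 on the minus strand, ACTG2 at chr2:74120015-74120044 and chr2:74120052-74120081, CALD1 at chr7:134396215-134396244, before the gene span given below, CNN2 at chr19:1026508-1026537 and SRF at chr6:43138967-43138996 and chr6:43138987-43139016 on the plus strand. Further near matches, not printed, lay at -239 in ACTG2, at -244 from another start of CALD1 and at 13 in SRF. The search covered both strands. Promoters on chromosome 8, which holds none of the members, were left out of the search. An exact box was found in 3 of the 14 promoters listed for 8 of the members, against 1.29% of the 35116 promoters searched. A box with at most 1 difference was found in 6 of 14 (promoters of ACTA2, ACTG2, CALD1, CNN2 and SRF), against 18.9% of those searched. The repeat unit GGAAGGAA, to which EWS/FLI binds in longer runs, was found in 0 of the 14 and in 3.67% of those searched. TAGLN and MYL9 had no entry. Of the 3 members with an exact box, CNN2, ACTG2 and SRF, none passed the test in any of the 14 comparisons below in the main fit. Each was called in some alternative fit, and ACTG2 had few counts. A link between the box and a change in level was not tested.

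Of the 10 members, 6 were lower in cells that kept endogenous EWS/FLI than in depleted cells, and 0 were higher. These were the tropomyosins TPM1 and TPM2, the calponin-family protein TAGLN (transgelin, or SM22), CNN1 (calponin 1), the myosin light chain MYL9 and the actin-binding protein CALD1 (caldesmon). The background of this comparison was 22.4% of the 30549 tested genes called lower in iLuc and 18.7% called higher (edgeR quasi-likelihood test, Benjamini-Hochberg adjusted p below 0.05). The median log2 fold change of iLuc over iEF was -1.12 over the 10 members and 0.00608 over all tested genes. Without iEF replicate 2, 5 members were lower, MYL9 no longer being called, and 2 were higher (ACTA2 and ACTG2). The share of all genes called without that library is not reported here. Bulk counts cannot tell fewer cells that express a gene from less RNA per cell.

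TPM1 (chr15:63334819-63364114, plus strand), which encodes the tropomyosin that lines actin filaments in smooth muscle and stress fibres, had the widest range of any member. Its level was 473, 513 and 413 CPM in iEF, against 22.2, 19.8 and 22.7 CPM in iLuc. In the rescued cells it was 122, 77.4 and 125 CPM (WT-EF), 216, 148 and 315 CPM (mut9), 443, 389 and 538 CPM (DAF), 411, 448 and 483 CPM (DAF-mut9) and 476, 511 and 271 CPM (Δ22). The iLuc, WT-EF and mut9 libraries formed 3 ranges without overlap, all below every iEF library, while DAF, DAF-mut9 and Δ22 overlapped with iEF. TPM1 was 21.8-fold lower in iLuc than in iEF (log2 fold change -4.45, SE 0.26, edgeR adjusted p = 2.88e-11), 4.39-fold lower with WT-EF (-2.13, SE 0.24, edgeR adjusted p = 7.49e-07) and 2.1-fold lower with mut9 (-1.07, SE 0.23, edgeR adjusted p = 0.00272). With DAF, DAF-mut9 and Δ22 the log2 fold changes over iEF were -0.05, -0.07 and -0.14, each with an SE of 0.23, and none passed the test. Opposite-strand genes, TPM1-AS among them, share 22.7% of the TPM1 exon bases, and the strand setting of the counting is not given in the sources used here.

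TPM2 (chr9:35681989-35690053, minus strand), another tropomyosin, moved less. Its levels were 64.2, 64 and 46.7 CPM in iEF, 34.6, 28.1 and 33.1 CPM in iLuc, 49.3, 44.8 and 42.6 CPM with WT-EF and 65.4, 64.5 and 54.9 CPM with mut9. With DAF they were 79.2, 93.1 and 90.5 CPM, with DAF-mut9 91.8, 92.2 and 80.7 CPM, and with Δ22 93.4, 94.4 and 76.5 CPM, all above every iEF library. TPM2 was thus lower than iEF in iLuc (log2 fold change -0.86, SE 0.12, edgeR adjusted p = 5.11e-06) and higher than iEF with DAF, DAF-mut9 and Δ22 (log2 fold changes of 0.6, 0.6 and 0.6). Its lower value with WT-EF (-0.35, SE 0.12, edgeR adjusted p = 0.0308) lost the call when any of 5 of the 6 libraries compared was left out, at values from -0.37 to -0.29, and stayed called only without iEF replicate 3. It also lost the call in 4 of the other settings.

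TAGLN (chr11:117070086-117078180, plus strand) encodes an actin-crosslinking protein that is a standard marker of SRF activity. It stood at 44.1, 82.5 and 42.1 CPM in iEF and at 15.4, 13.2 and 19.6 CPM in iLuc. WT-EF cells had 38.5, 28.7 and 56.4 CPM and mut9 cells 63.9, 64.9 and 92 CPM, while the levels were 136, 139 and 204 CPM in DAF, 142, 144 and 114 CPM in DAF-mut9 and 92.8, 133 and 134 CPM in Δ22. All 9 libraries of DAF, DAF-mut9 and Δ22 lay above all 3 of iEF, and all 3 iLuc libraries lay below. TAGLN was 3.54-fold lower in iLuc (log2 fold change -1.82, SE 0.25, edgeR adjusted p = 4.48e-06) and 2.79-fold higher with DAF (1.48, SE 0.24, edgeR adjusted p = 0.000581). It was 2.38-fold higher with DAF-mut9 (1.25, SE 0.24, edgeR adjusted p = 0.00619), which fell short of the threshold without DAF-mut9 replicate 1 (1.1), and 2.1-fold higher with Δ22 (1.07, SE 0.24, edgeR adjusted p = 0.019). The Δ22 call was lost when any of iEF replicates 1 and 3 and Δ22 replicates 2 and 3 was left out (log2 values of 0.81 to 1.07). PCSK7 on the opposite strand shares 34.1% of the TAGLN exon bases.

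CALD1 (chr7:134429003-134655480, plus strand), whose product binds actin, myosin and tropomyosin, had the highest group mean per kilobase of exon of the 10 members in all 7 groups, at 44.1 ± 17.2 CPM per kb in iEF and 15.1 ± 4.81 CPM per kb in iLuc (SD, n = 3). In iEF its libraries overlapped with those of TPM1, at 31.7 ± 3.45 CPM per kb (SD, n = 3), and in iLuc its lowest library (9.58 CPM per kb) lay below the highest of SRF (13.5), TPM2 (10.9) and CNN2 (9.95), in CPM per kb. Its levels were 365, 622 and 307 CPM in iEF, 179, 171 and 93.7 CPM in iLuc, 336, 290 and 294 CPM in WT-EF, and 407, 351 and 390 CPM in mut9. They reached 528, 613 and 641 CPM in DAF, 507, 559 and 609 CPM in DAF-mut9 and 474, 576 and 499.5 CPM in Δ22. Only the iLuc libraries lay apart from iEF, 2.9-fold lower (log2 fold change -1.53, SE 0.21, edgeR adjusted p = 3.68e-06). Exon length was the union over all annotated transcripts, 9786 bases for CALD1 and 14700 for TPM1. The ranking per kilobase depends on these lengths. Before the division, the iEF mean of TPM1 (466 CPM) was above that of CALD1 (431 CPM).

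CNN1 (chr19:11649582-11661138, plus strand) and MYL9 (chr20:35169900-35179850, plus strand), both classical smooth muscle genes, were low throughout. CNN1 stood at 2.54, 8.48 and 3.13 CPM in iEF, at 2.08, 2.1 and 0.877 CPM in iLuc, at 1.73, 1.79 and 1.7 CPM with WT-EF and at 0.879, 1.5 and 1.57 CPM with mut9. It was 2.27, 3.05 and 3.19 CPM with DAF, 4.19, 4.86 and 5.16 CPM with DAF-mut9 and 3.29, 5.09 and 6.24 CPM with Δ22. The iLuc, WT-EF and mut9 libraries all lay below the lowest iEF library, and CNN1 was lower than iEF in all 3 groups (log2 fold changes of -1.38, -1.33 and -1.77, edgeR adjusted p = 0.00249, 0.005 and 0.00118). Without iEF replicate 2, the highest of the 21 libraries, the log2 fold changes were -0.79, -0.76 and -1.19, and the WT-EF value was no longer called.

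MYL9 had 12 to 30 counts per library in iEF, 3 to 10 in iLuc, 3 to 8 with WT-EF and 14 to 17 with mut9, against 34 to 50 with DAF, 33 to 45 with DAF-mut9 and 30 to 52 with Δ22. It was lower than iEF in iLuc (log2 fold change -1.56, SE 0.47, edgeR adjusted p = 0.0102) and with WT-EF (-1.75, SE 0.48, edgeR adjusted p = 0.00815). Both calls rested on few counts. The first was lost without iEF replicate 2 (-0.94) or iLuc replicate 3 (-1.17), and the second without iEF replicate 2 (-1.16) or WT-EF replicate 2 (-1.31). DESeq2 called MYL9 higher with DAF than in iEF (1.23), where the main fit did not (edgeR adjusted p = 0.0569).

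ACTA2 (chr10:90694831-90751096, minus strand), which encodes smooth muscle α-actin, did not follow the pattern of TPM1. It stood at 13.4, 51.7 and 10.9 CPM in iEF and at 31.5, 36.6 and 25.3 CPM in iLuc, so that iEF held both the lowest libraries of all and 1 high library. WT-EF cells had 38.2, 28.3 and 38.9 CPM, mut9 cells 65.7, 69.4 and 46.6 CPM, DAF cells 59.5, 76.6 and 82.5 CPM, DAF-mut9 cells 44.2, 68.5 and 41.4 CPM, and Δ22 cells 43.6, 66.9 and 37.6 CPM. The DAF libraries were all above the highest iEF library, and those of the other groups overlapped with iEF. ACTA2 was 3.3-fold higher than iEF with DAF (log2 fold change 1.72, SE 0.33, edgeR adjusted p = 0.00219) and 2.69-fold higher with mut9 (1.42, SE 0.33, edgeR adjusted p = 0.00429). The log2 fold changes of DAF-mut9 and Δ22 were 1.16 and 1.1, just short of the threshold (edgeR adjusted p = 0.0523 and 0.0787). DESeq2 called ACTA2 higher in both (1.16 and 1.09), as did the fits without the low-count filter and with only the compared groups. The log2 fold changes of WT-EF and iLuc were 0.7 and 0.46 (edgeR adjusted p = 0.118 and 0.276), and both were called without the low-count filter (0.72 and 0.48). Without iEF replicate 2, ACTA2 was called higher than iEF in all 6 comparisons, at log2 fold changes of 1.25 (iLuc), 1.46 (WT-EF), 2.21 (mut9), 2.5 (DAF), 1.96 (DAF-mut9) and 1.9 (Δ22). That library also had the highest summed level of the fibroblast markers among all 21 (294 CPM), and their part in the result was not tested. ACTA2-AS1 and FAS on the opposite strand share 35.9% of the ACTA2 exon bases, and near-identical actin paralogs could divide its reads, so its counts are uncertain.

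**Figure D1:**
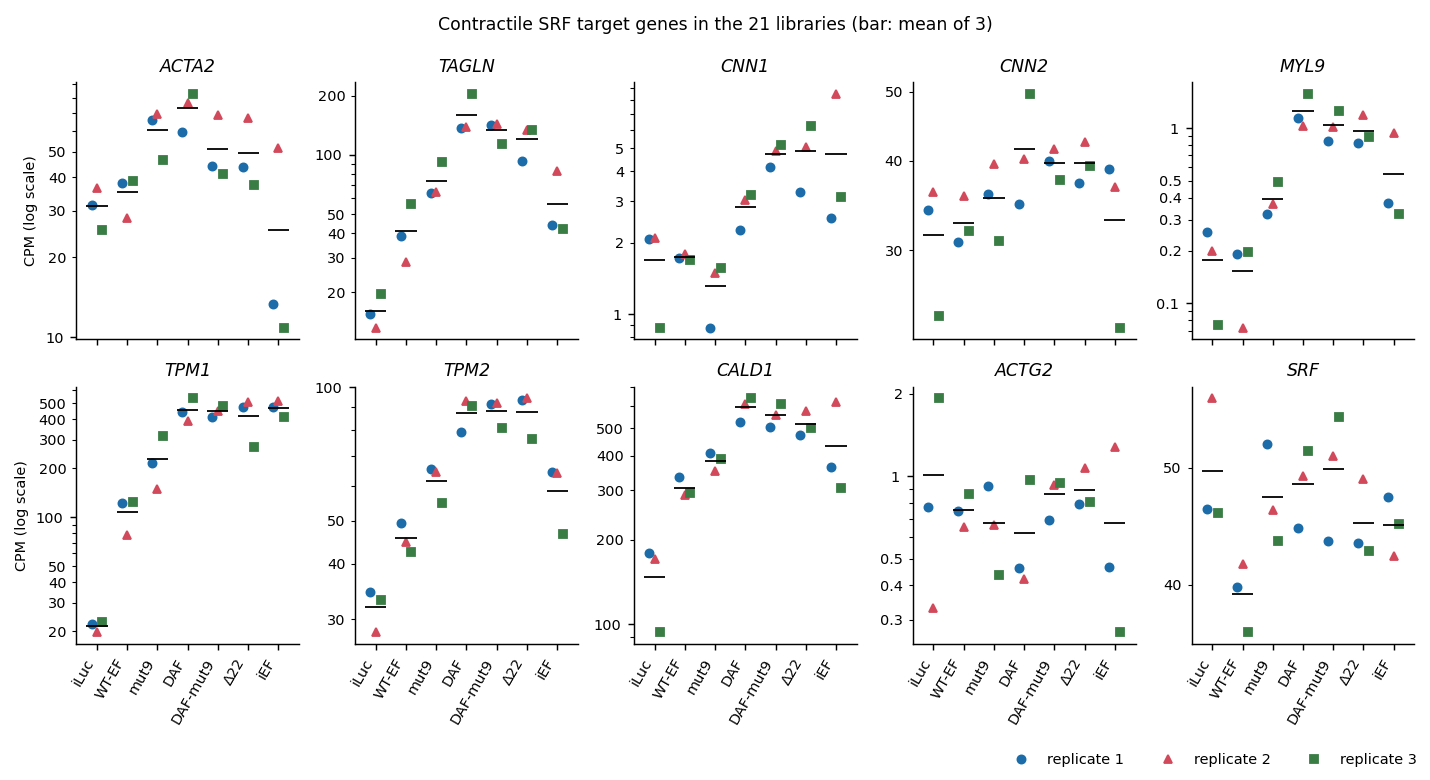
Each panel plots 1 member, with CPM on a log axis against group, a symbol per library (circle, triangle and square for replicates 1, 2 and 3) and a bar at the mean of 3. TPM1 climbs from iLuc through WT-EF and mut9 to the other 4 groups, TAGLN and TPM2 are highest in DAF, DAF-mut9 and Δ22, and the triangle of iEF stands above the other iEF libraries for ACTA2, CNN1, TAGLN, CALD1, MYL9 and ACTG2.

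SRF itself (chr6:43139007-43149244, plus strand) had nearly the same level everywhere. It ranged from 36.55 to 57.1 CPM over all 21 libraries, and its group means ran from 39.3 ± 2.56 CPM with WT-EF to 49.9 ± 5.87 CPM with DAF-mut9 (SD, n = 3), a 1.27-fold span. CNN2 (calponin 2, chr19:1026585-1039067, plus strand), the more widely expressed calponin, ranged from 23.4 to 49.6 CPM, with group means from 31.6 ± 6.36 CPM in iLuc to 41.5 ± 7.49 CPM with DAF (SD, n = 3). ACTG2 (γ-smooth muscle actin, chr2:74119441-74146992, plus strand) had 10 to 77 counts per library, or 0.27 to 1.93 CPM. None of these 3 genes passed the test in any of the 14 comparisons. The nearest was SRF in WT-EF over iLuc (log2 fold change -0.34, SE 0.12, edgeR adjusted p = 0.0508), where the ranges did not overlap. It was called by DESeq2 (-0.34) and in 3 other settings, and without iLuc replicate 3 (-0.39). DESeq2 also called SRF higher with DAF than with WT-EF (0.31). ACTG2 was called higher in iLuc than in iEF without iEF replicate 2 (1.43). CNN2 was called higher with DAF than with WT-EF with only these groups in the fit (0.33). For iLuc over iEF the 95% interval of the log2 fold change was -0.09 to 0.37 for SRF and -0.38 to 0.25 for CNN2, against -0.49 to 1.59 for ACTG2, which includes changes of over 2-fold.

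Among the 5 rescues, members lower than iEF were called with WT-EF and mut9, and members higher than iEF with mut9, DAF, DAF-mut9 and Δ22. WT-EF had 4 lower (CNN1, MYL9, TPM1 and TPM2), beside 16.9% of all genes, and 0 higher. Of all 30549 tested genes, 8635 were called with WT-EF, and 5165 of these were lower. Mut9 had 2 lower (CNN1 and TPM1), beside 8.33% of all genes, and 1 higher (ACTA2), beside 6.22%. DAF had 3 higher (ACTA2, TAGLN and TPM2), beside 3.41% of all genes. DAF-mut9 had 2 (TAGLN and TPM2), beside 1.26%, and Δ22 had the same 2, beside 0.881%. None of these 3 groups had a lower member, but few genes of any kind were called lower. With DAF these were 4.02% of all genes. In all, 1038 genes were called with DAF-mut9, 384 of them higher, and 817 with Δ22, 269 of them higher. At such shares, 0 lower of 10 members is near the background. All of these comparisons share the 3 iEF libraries. Median log2 fold changes over the 10 members were -0.41 in the WT-EF rescue, 0.07 in the mut9 rescue, and then 0.42, 0.38 and 0.36 in those of DAF, DAF-mut9 and Δ22, where those over all genes were between -0.0327 and 0.0219. Without iEF replicate 2, WT-EF had 1 lower (TPM1) and 1 higher (ACTA2), with CNN1 (-0.76), MYL9 (-1.16) and TPM2 (-0.29) no longer called. Mut9 then had 2 lower, so that the number lower was not larger with WT-EF than with mut9, and 2 higher. DAF and DAF-mut9 had 5 higher each and Δ22 had 3, with 0 lower, and the calls gained beside ACTA2 were TAGLN with mut9 (0.8) and, with DAF and DAF-mut9, MYL9 (1.83 and 1.57) and CALD1 (0.81 and 0.72). Without iEF replicate 3 Δ22 had 0, with TAGLN at 0.81 and TPM2 at 0.5, and WT-EF had 6, with TAGLN (-0.73) and CALD1 (-0.62) added. ACTA2 was called with WT-EF also without WT-EF replicate 2 (1.08). For none of these refits is the share of all genes called reported here.

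**Figure D2:**
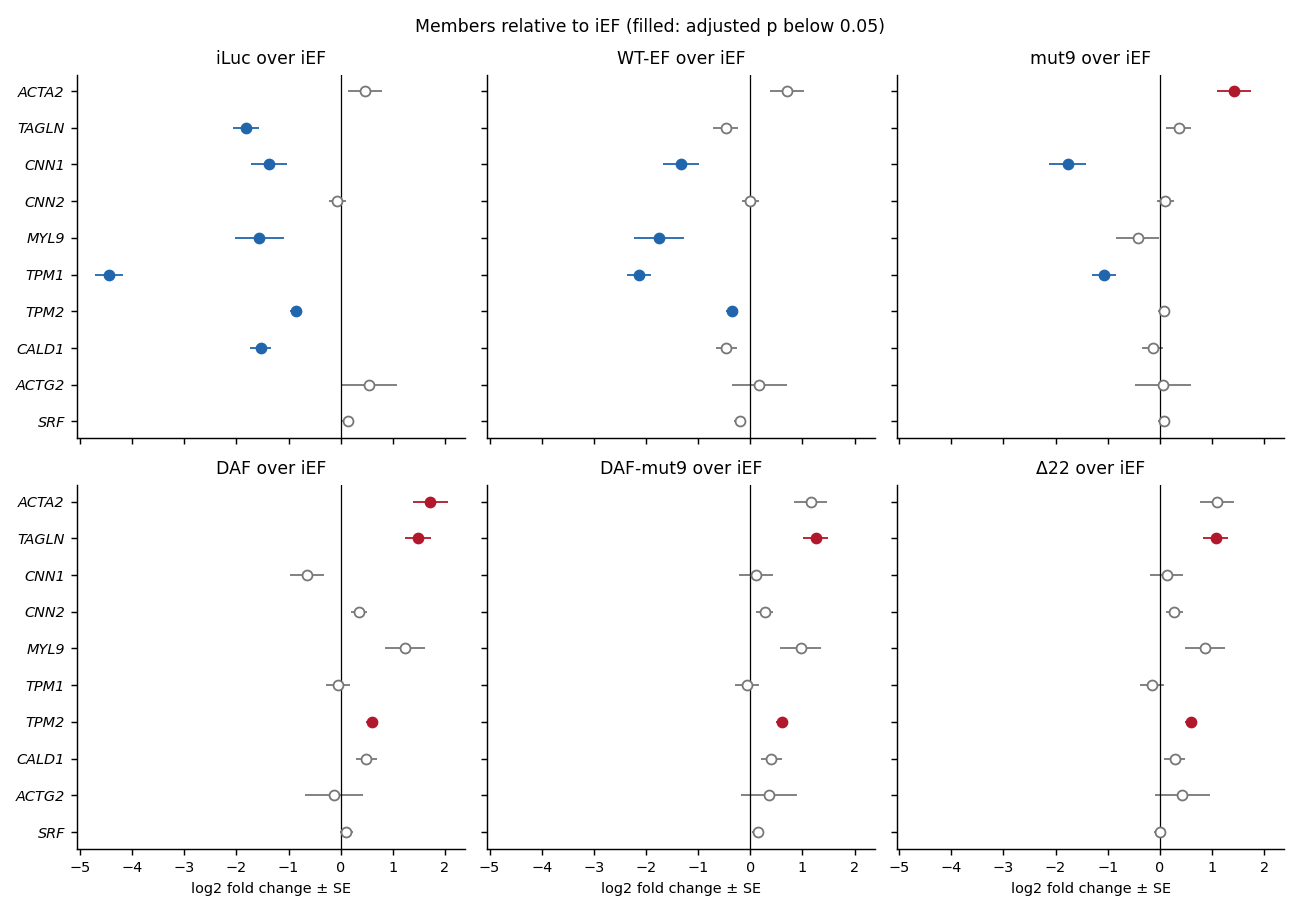
Each panel plots the log2 fold change of the 10 members over iEF with its SE, filled red where called higher, filled blue where called lower and open grey where not called. The 6 filled points of iLuc are all to the left of 0 with TPM1 at -4.45, and those of DAF, DAF-mut9 and Δ22 are all to the right.

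The next comparisons set no group against iEF, although the iEF libraries still entered the fit, which estimates the spread over all 21 libraries. They set the wild-type cDNA against the endogenous fusion, and the constructs with a changed EWS domain against WT-EF or each other. FLI1 counts differed between these groups too, and were lowest with WT-EF among the rescues. The part of the construct level in the differences below was not tested.

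WT-EF did not reach the iLuc level for 4 members. TPM1 was 4.96-fold higher in WT-EF than in iLuc (log2 fold change 2.31, SE 0.24, edgeR adjusted p = 7.04e-07), TAGLN 2.55-fold (1.35, SE 0.25, edgeR adjusted p = 0.000464), CALD1 2.1-fold (1.07, SE 0.2, edgeR adjusted p = 0.000726) and TPM2 1.42-fold (0.51, SE 0.12, edgeR adjusted p = 0.00399), beside 9.78% of all genes called higher. The ranges did not overlap for any of the 4, nor for SRF, which was lower with WT-EF and not called. The share of all genes without overlap was not counted. CNN1 and MYL9 were at log2 values of 0.04 (SE 0.35) and -0.2 (SE 0.54), and ACTA2 at 0.24 (SE 0.32).

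With the amino-terminal repeat tyrosines substituted in the full-length EWS domain, 6 members were higher than with wild-type EWS/FLI and none was lower. Of all tested genes 10.6% were called lower in that comparison. Between DAF and WT-EF, MYL9 differed 7.92-fold (log2 fold change 2.99, SE 0.45), TPM1 4.25-fold (2.09, SE 0.24), TAGLN 3.87-fold (1.95, SE 0.25), ACTA2 2.02-fold (1.02, SE 0.32), CALD1 1.94-fold (0.95, SE 0.2) and TPM2 1.93-fold (0.95, SE 0.12), with edgeR adjusted p between 1.45e-06 and 0.0225, beside 14.3% of all genes called higher. The DAF libraries lay above the WT-EF libraries without overlap for all 6, but also for CNN1 and SRF, which were not called. The share of all genes without overlap was not counted. The ACTA2 call was lost without WT-EF replicate 2 (0.68), without DAF replicate 3 (0.69) and without the replicate block (1.05). The median log2 fold change over the 10 members was 0.95, against -0.035 over all genes.

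Between mut9, with its shortened EWS domain, and WT-EF, 3 members differed. TPM1 was 2.09-fold higher with mut9 than with WT-EF (log2 fold change 1.06, SE 0.23, edgeR adjusted p = 0.00689), TAGLN 1.79-fold (0.84, SE 0.24, edgeR adjusted p = 0.0398) and TPM2 1.35-fold (0.43, SE 0.12, edgeR adjusted p = 0.0307), beside 4.95% of all genes called higher. With only these groups in the fit 6 members were called, with ACTA2 (0.72), MYL9 (1.32) and CALD1 (0.32) added. The share of all genes called in that fit is not reported here. The 3 calls of the fit over all groups were fragile. TPM2 lost its call whichever of the 6 libraries was left out (0.37 to 0.44), TAGLN in 5 of 6 cases (0.59 to 0.9), with only the case without WT-EF replicate 3 keeping it, and TPM1 without WT-EF replicate 2 (0.87) or mut9 replicate 3 (0.72).

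With the tyrosines substituted in the shortened domain, 5 members were higher than with mut9 itself. DAF-mut9 exceeded mut9 by 3.68-fold for CNN1 (log2 fold change 1.88, SE 0.35, edgeR adjusted p = 0.000905), 2.63-fold for MYL9 (1.4, SE 0.4, edgeR adjusted p = 0.0272), 2.01-fold for TPM1 (1.01, SE 0.23, edgeR adjusted p = 0.00625), 1.85-fold for TAGLN (0.89, SE 0.24, edgeR adjusted p = 0.02) and 1.43-fold for TPM2 (0.52, SE 0.12, edgeR adjusted p = 0.00547), beside 5.15% of all genes called higher. CNN1 and TPM2 kept the call whichever library was left out. TPM1 lost it without mut9 replicate 2 (0.79), TAGLN in 4 of 6 cases (without mut9 replicates 1 and 2 and DAF-mut9 replicates 1 and 2, at 0.73 to 0.88) and MYL9 in 5 of 6 (1.22 to 1.48). DAF likewise exceeded mut9 for TAGLN, MYL9, TPM1 and TPM2 (log2 fold changes of 1.11, 1.66, 1.03 and 0.52, edgeR adjusted p between 0.00598 and 0.0123), beside 3.48% of all genes called higher. Without mut9 replicate 2 only the TPM2 call of these 4 stayed, with TAGLN at 1.03, MYL9 at 1.55 and TPM1 at 0.8. Without DAF replicate 3 the MYL9 and TPM2 calls were lost (1.46 and 0.43). MYL9 was also lost without mut9 replicate 1 (1.59) and TPM2 without DAF replicate 2 (0.49). DESeq2 also called CNN1 (1.15) and CALD1 (0.65) higher with DAF than with mut9.

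The log2 fold change of ACTA2 on tyrosine substitution was 1.02 in the full-length domain and -0.27 (SE 0.31) in the shortened one, and that of TPM1 was 2.09 and 1.01. The test of this difference called 0 of the 10 members (edgeR, beside 3.33% of all genes in either direction), with 6 members at an unadjusted p below 0.05, beside 14.6% of all genes, and the lowest adjusted p at TPM1 (log2 difference -1.08, SE 0.32, adjusted p = 0.0767). DESeq2 called 1 member, TPM1 (-1.06), which edgeR also called without mut9 replicate 2 (-1.27). DAF and DAF-mut9 do not carry the same substitutions, since mut9 lacks a part of the repeats.

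Between DAF or DAF-mut9 and Δ22 no member passed the test in the main fit. DAF over Δ22 had 0 members called by edgeR and 0 by DESeq2, with 1 (CNN1, log2 fold change -0.77, SE 0.33) at an unadjusted p below 0.05, beside 8.44% of all genes at that p and 0.972% called in either direction. The ranges of DAF and Δ22 did not overlap for TAGLN (DAF higher) and CNN1 (DAF lower), neither of which was called in the main fit. How many of all genes had no overlap here was not counted. The 95% interval of ACTA2 was 0.006 to 1.24. ACTA2 was called without the low-count filter (0.64), and CNN1 with only the compared groups in the fit (-0.77). DAF-mut9 over Δ22 had 0 members called and 0 at an unadjusted p below 0.05, with log2 fold changes between -0.07 and 0.18, and here edgeR and DESeq2 called 0 of all genes (0.0%), with 671 of them at an unadjusted edgeR p below 0.05. For TPM1 the 95% interval of DAF-mut9 over Δ22 was -0.37 to 0.52 and for TAGLN -0.29 to 0.64, so that differences inside these bounds remain possible.

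**Figure D3:**
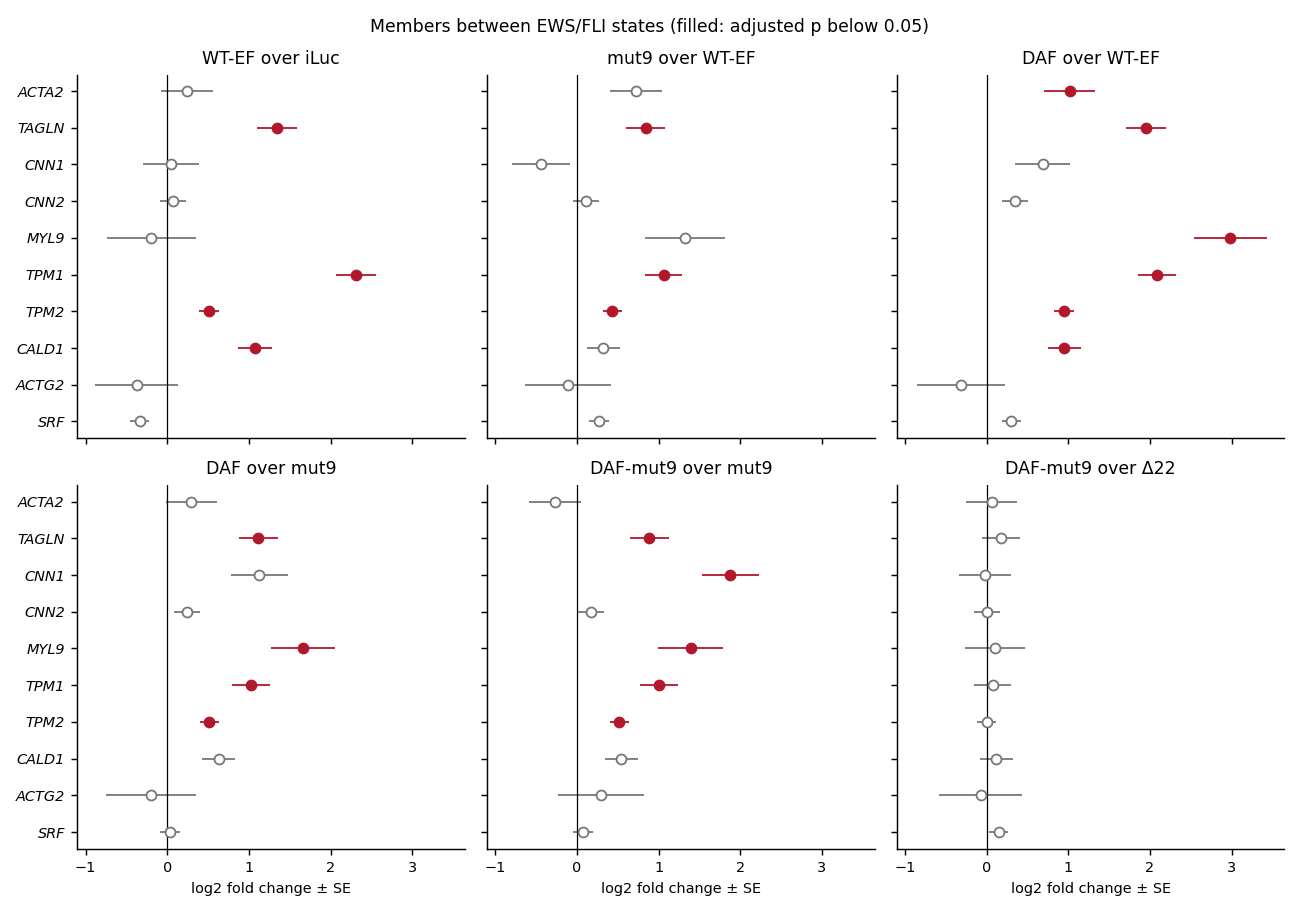
Each panel plots the log2 fold change of the 10 members between a pair of groups with its SE, filled red where called higher in the first group and open grey where not called. No point is filled blue, DAF over WT-EF has 6 filled points, and DAF-mut9 over Δ22 has 0.

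Most cofactors and regulators of SRF differed between iLuc and iEF, while SRF itself, ELK1 and MRTFB were not called. Of a list of 10 cofactors and regulators, 7 were lower in iLuc, beside 22.4% of all genes, and 1 was higher, beside 18.7%, and the median log2 fold change was -0.73. FHL2, a LIM-domain partner of SRF and of MRTFs, stood at 71.7, 44.6 and 89.5 CPM in iEF and at 3.62, 2.98 and 3.81 CPM in iLuc (log2 fold change -4.28, SE 0.19, edgeR adjusted p = 6.75e-13). TGFB1I1 (Hic-5), a focal adhesion LIM protein, was at 16.1, 15.4 and 12.9 CPM in iEF and at 2.29, 1.53 and 0.802 CPM in iLuc (-3.29, SE 0.22, edgeR adjusted p = 1.93e-10). Their means increased in the order iLuc, WT-EF, mut9 and DAF. Each of these steps passed the test for FHL2, while for TGFB1I1 the step from mut9 to DAF did not (0.33). DAF exceeded WT-EF for both (FHL2 1.75, SE 0.17, edgeR adjusted p = 2.14e-07 and TGFB1I1 1.45, SE 0.2, edgeR adjusted p = 1.39e-05). TGFB1I1 was the 1 gene of this list with a called difference between tyrosine substitution in mut9 and in the full-length domain (log2 difference -1.03).

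MYOCD, the muscle-type coactivator, was low in iEF, at 1.52, 2.66 and 0.811 CPM, and had 0 counts in all 3 iLuc libraries, at least 22.8-fold lower if 3 counts per library are taken as the floor. With WT-EF and mut9 it had 0 to 5 counts. MRTFA was 1.41-fold lower in iLuc (log2 fold change -0.5, SE 0.11, edgeR adjusted p = 0.000785), from a mean of 27.4 ± 1.15 to 19.5 ± 1.99 CPM (SD, n = 3), and MRTFB was at 0.16 (SE 0.14, edgeR adjusted p = 0.387). Among the ternary complex factors ELK3 and ELK4 were lower (-0.76 and -0.7) and ELK1 stood at -0.01 (SE 0.12). KLF4, a repressor of smooth muscle genes, was lower (-2.18, SE 0.43, edgeR adjusted p = 0.000292), and SCAI, a suppressor of MRTF activity, was higher (1.03, SE 0.13, edgeR adjusted p = 2.2e-06), with 29.9 to 37.3 CPM in iLuc and 11.9 to 20.96 CPM in iEF. SCAI was again lower with DAF than with WT-EF (-0.5, SE 0.13, edgeR adjusted p = 0.00837), and MRTFA higher (0.41, SE 0.11, edgeR adjusted p = 0.00679).

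**Figure D4:**
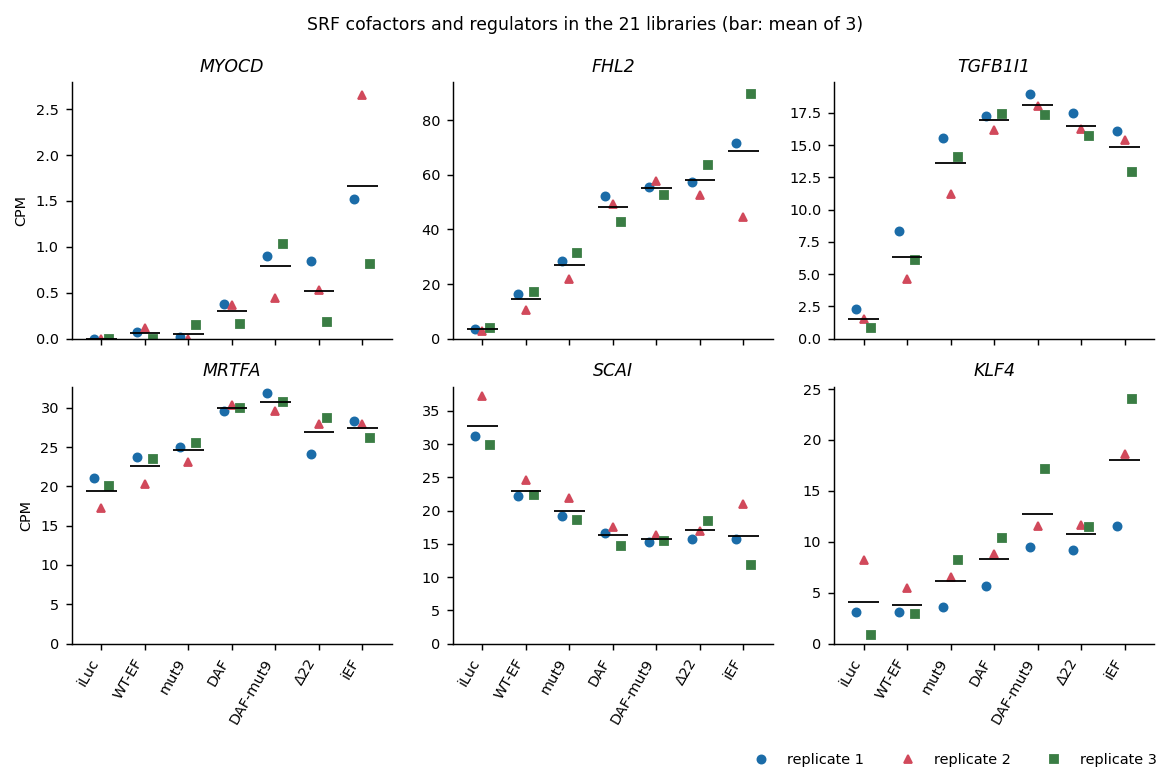
Each panel plots CPM from 0 on a linear axis for 1 SRF cofactor or regulator against group, with a symbol per library and a bar at the mean of 3. FHL2 and TGFB1I1 are lowest in iLuc and next lowest with WT-EF, SCAI is highest in iLuc, and MYOCD is at 0 in all 3 iLuc libraries.

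Other genes of the actin system were counted from lists of the same kind. Of 32 other actin cytoskeleton and contractile genes, 24 were lower in iLuc than in iEF, beside 22.4% of all genes, and 3 higher, beside 18.7% (median log2 fold change -0.96). Among those that averaged at least 5 CPM over all libraries, the widest falls were those of PDLIM1, a LIM protein of stress fibres that went from 9.44 CPM in iEF to 0.0328 CPM in iLuc, MYLK, the myosin light chain kinase (-3.57, SE 0.25), SYNPO, an actin-bundling protein (-2.31, SE 0.22), and MYH9, a non-muscle myosin heavy chain (-1.64, SE 0.15). MYH10, another non-muscle myosin, CSRP1 and MYL12B were higher (0.85, 0.45 and 0.31). Between DAF and WT-EF, 21 of the 32 were higher with DAF, beside 14.3% of all genes, and 0 lower, beside 10.6%, with SYNPO at 2.61 (SE 0.22) and MYLK at 1.88 (SE 0.23). With DAF 6 of the 32 were above iEF, beside 3.41% of all genes, and 1 below, beside 4.02%.

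Of 13 immediate-early genes of the SRF and ternary complex factor type, 6 were lower in iLuc, beside 22.4% of all genes, and 1 higher, beside 18.7%. The lower ones included IER3 (-4.89, SE 0.37), DUSP5 (-2.59, SE 0.22), CCN2, which MRTF and YAP also drive (-2, SE 0.21), and JUNB (-1.79, SE 0.3). NR4A1 was higher (1.39, SE 0.45), but its counts overlapped, at 330 to 3770 in iLuc and 109 to 1639 in iEF. FOS lay at 43.3 to 444 CPM in iLuc and 67.5 to 221.5 CPM in iEF. EGR1 lay at 72.2 to 268 CPM in iLuc and 107 to 311 CPM in iEF.

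**Figure D5:**
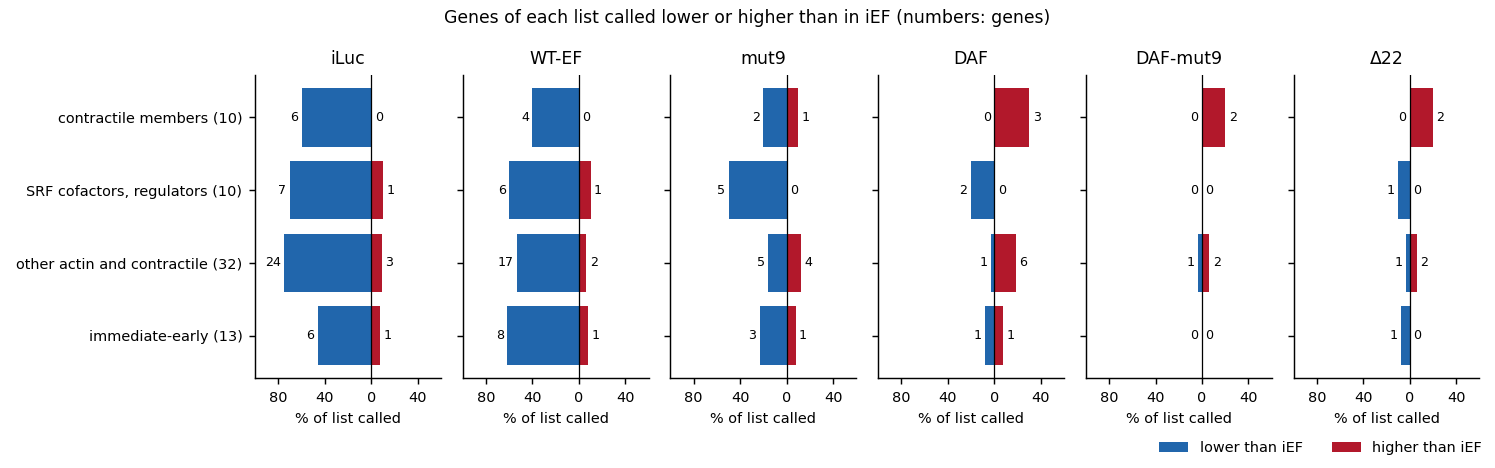
Each panel is 1 condition over iEF, and the bars give the percentage of each list's tested genes called lower (blue, to the left) or higher (red, to the right), with the number of genes beside the bar and the list size in brackets. The blue bars shorten from iLuc through WT-EF to mut9 in every list but the immediate-early genes, where 6, 8 and 3 are lower, and 24 of the 32 other actin genes are lower in iLuc against 1 each with DAF, DAF-mut9 and Δ22.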

How the data were processed

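The authors aligned paired-end reads from 21 libraries to hg19 with STAR (2.5.1b in the submitters' processing notes) and deposited a raw count per Ensembl gene made by htseq-count (intersection-strict). Which annotation release and strand setting were used is not given in the sources used here. The authors also deposited ComBat-adjusted values, a signal not scaled to library size, used here as an alternative only. The 10 members and all lists were chosen with earlier results of these data known. Raw counts were fitted in R 4.3.3 with edgeR 4.0.16 (TMM, glmQLFit and glmQLFTest, terms for group and replicate set, all libraries together), and the 30549 genes that averaged 1 or more counts in each library were tested at a Benjamini-Hochberg adjusted p below 0.05 in 14 comparisons. Levels are CPM of the TMM-adjusted library, where 1 CPM stood for about 32.0 to 45.2 counts. Gene places are from GENCODE lifted to GRCh37. Of 114 listed genes 113 were found, and PECAM1 was not matched. Beside the members, all SRF cofactors were named and, from 2 other lists, up to 4 genes each way by log2 fold change in iLuc over iEF among those called with a mean of at least 5 CPM. A further gene list is not reported here. Alternatives used DESeq2 1.42.0, limma 3.58.1 with log2(value per 1 M + 1) on the ComBat signal, other normalization and filters, no replicate block, only the compared groups, and each library left out in turn. The scripts were tested on simulated counts.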

Additional observations from a re-analysis of the deposited data

How the results depend on the processing

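Of 140 log2 fold changes (10 members in 14 comparisons), 42 were called, and no called value changed sign in any of its refits under another setting or without a library. Of these 42, 24 kept the call in every refit and 18 lost it in at least 1. In all, 59 of the 546 refits of called values lost the call, 48 of them by leaving out a library, and 67 of the 1334 refits of uncalled values gained one. A further 87 refits changed the sign of a value called in neither fit, none over 0.769 on the log2 scale. RLE normalization moved the median of all genes by at most 0.0297 and no group mean of a member by more than its SD. Counts of members called moved by over 1.5 times as follows. With no low-count filter they were 5 for DAF and 4 for DAF-mut9 over iEF, 1 for DAF over Δ22 and 4 for the interaction. With only the compared groups they were 6 for mut9 over WT-EF, 1 for DAF over Δ22 and 5 for the interaction. DESeq2 with the replicate block gave 1 for the interaction, and the ComBat values gave 1 for mut9 over WT-EF. Without the replicate block, mut9 over WT-EF had 1 call (TPM1), and no other count moved by over 1.5 times. Same-numbered libraries deviated together in part (r from -0.128 to 0.546, median 0.157, over 0.1 in 38 of 63 pairs). Pairs with different numbers did so less (median r -0.0933, over 0.1 in 17 of 126 pairs). These values were not taken as proof of pairing. The replicate number still entered every main fit as a block, which stood for the authors' batch adjustment. Leaving out 1 library gave ranges of 2 to 6 for WT-EF, 3 to 5 for DAF, 1 to 5 for DAF-mut9 and 0 to 3 for Δ22 over iEF, 0 to 2 for mut9 over WT-EF, 1 to 4 for DAF over mut9, 2 to 5 for DAF-mut9 over mut9 and 0 to 1 for the interaction. The cause of these shifts was not tested. Shares of all genes called in the refits are not reported here, so a changed count is not read as a result about the members. MYL9, ACTG2 and MYOCD had few counts, which limits what their folds can show.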
